A study of Drosophila melanogaster with 12 samples.

Results

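The 10 genes described here store, carry or use iron in Drosophila melanogaster neurons: the ferritin genes Fer1HCH, Fer2LCH and Fer3HCH, the transferrin genes Tsf1 and Tsf2, the metal transporter genes mfrn and Mvl, and the iron-sulfur genes fh, IscU and Nfs1. They were chosen by name, as genes with at least 1 probe set whose only annotated symbol is theirs, and all 10 had one, out of 11982 genes so represented. Tsf1 had 3 such probe sets and each other gene had 1, and the probe set with the highest mean over the 12 arrays stood for the gene. Expression was measured on Affymetrix Drosophila 2.0 arrays in pools of 115 neurons sorted by green fluorescence from at least 15 dissociated adult brains. There were 4 groups of 3 arrays: dopaminergic and cholinergic neurons of controls, and the same neuron types of parkin null mutants. The flies of all groups were kept on cornmeal and molasses food in a light-dark cycle. The parkin allele, the genotype of the controls, the drivers of the fluorescent protein and the age and sex of the flies are not given in the sources used here.

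Iron is needed for respiration and for tyrosine hydroxylase, the enzyme that makes the precursor of dopamine, but free iron also feeds the formation of radicals. Insects hold iron mainly in a secreted ferritin built from both heavy chains (Fer1HCH), which oxidise iron, and light chains (Fer2LCH), which help to deposit it as mineral, and each chain depends on the other for stable ferritin. In mitochondria, iron brought in by mitoferrin is joined with sulfur from the cysteine desulfurase Nfs1 on the scaffold IscU, with the help of frataxin. Parkin is a ubiquitin ligase of mitochondrial quality control, and iron accumulates in the dopaminergic midbrain of people with Parkinson's disease.

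All values below are log2 intensities per probe set as the authors deposited them, and differences between groups are log2 differences. Dopaminergic mutant replicate 3 stood apart from the other arrays. Of the 730 probe sets at or above a log2 intensity of 8 on at least 10 of the other 11 arrays, it was below 8 for 511, against 119 of 593 for dopaminergic mutant replicate 1 and 21 to 64 for the other arrays. The neuronal gene elav measured 6.27 on it and 9.07 to 11.90 on the others. The neuronal genes brp (5.31), onecut (2.93) and CadN (5.22) were also at their lowest there. In contrast nSyb, at 10.65, was close to its 10.70 to 11.61 on the others. On dopaminergic mutant replicate 1, onecut (3.55) and CadN (5.65) were also low, while elav (11.49), nSyb (11.61) and brp (10.49) were not. CadN was at 5.64 on dopaminergic control replicate 2. The mean of the 5 measured neuron markers was 6.08 on dopaminergic mutant replicate 3, 8.56 on replicate 1 and 9.09 to 10.77 on the other arrays. The tyrosine hydroxylase gene ple, which marks dopaminergic neurons, measured 10.39 to 10.57 in dopaminergic controls and 3.61 to 4.18 in cholinergic controls. In dopaminergic mutants it measured 7.01, 10.94 and 4.36, so the array labelled dopaminergic mutant replicate 3 went against its label for this gene. The mean of 5 dopaminergic markers was 9.54, 11.22 and 5.67 on the dopaminergic mutants. It was 10.75 to 11.47 in dopaminergic and 6.22 to 7.45 in cholinergic controls. On dopaminergic mutant replicate 1, Vmat (12.71), Ddc (11.4) and DAT (9.77) were near the dopaminergic controls. The marker Fer2, not a ferritin gene, was low there (6.84), as was ple. The cholinergic marker ChAT was not particular to the cholinergic pools, since it measured 9.28 to 11.39 in dopaminergic controls. Fewer cells that express a gene and less RNA of it per cell cannot be told apart in such pools. The parkin gene was not analysed here.

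None of the 10 genes passed the test in any comparison of the 4 groups. A gene was tested where its probe set reached the median of its own array on at least 3 arrays, which 7 of the 10 did: Fer1HCH, Fer2LCH, mfrn, Tsf1, IscU, Nfs1 and Mvl. Of these, 0 differed among the groups at an adjusted p of 0.05 (limma moderated F test over all groups, Benjamini-Hochberg adjustment over 12460 probe sets; adjusted p from 0.837 to 0.970), against 0.0241% of all probe sets tested. At an unadjusted p of 0.05, 1 of the 7 was below the threshold, against 5.32% of all probe sets. That gene was Fer2LCH (unadjusted p = 0.0273 in the limma F test).

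**Figure D1:**
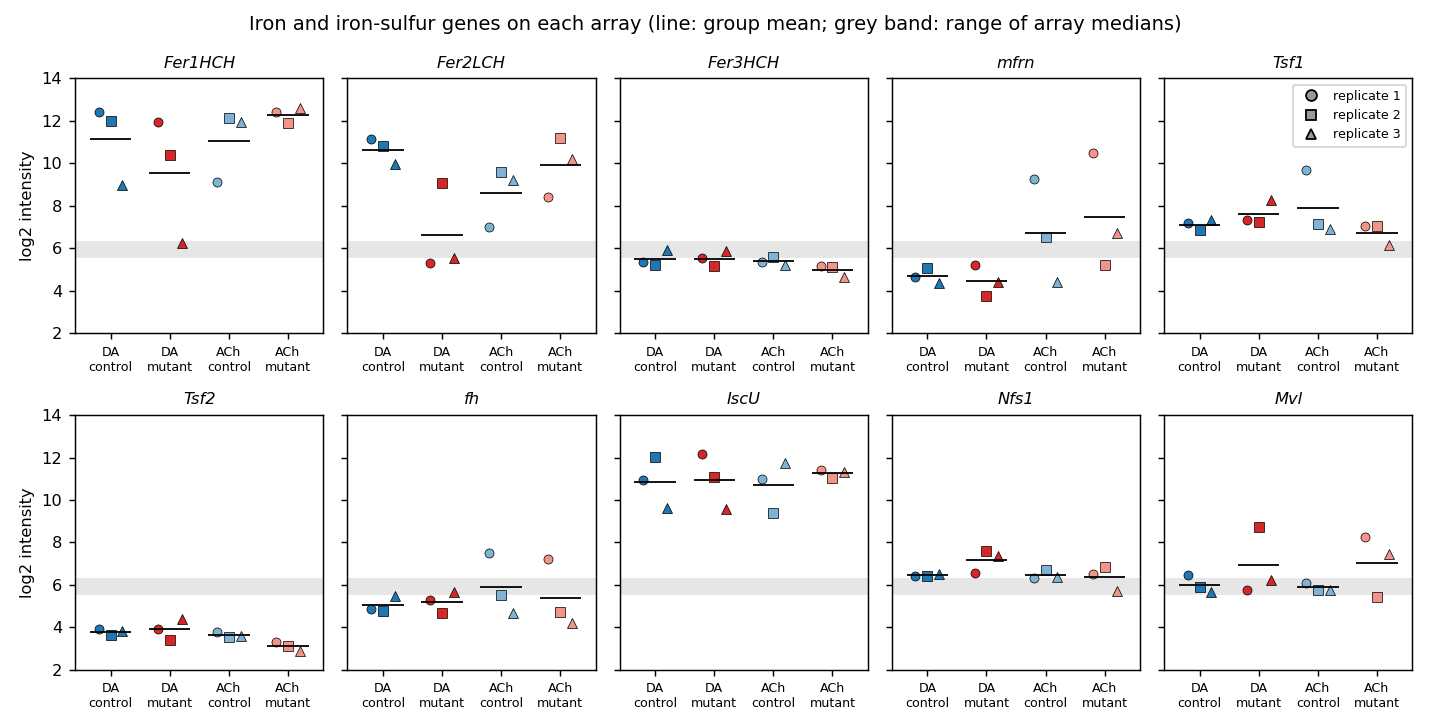
The log2 intensity (vertical axis) of each of the 10 genes is plotted for the 3 arrays of each group, with the group mean as a line and the range of the 12 array medians (5.59 to 6.30) as a grey band. Fer1HCH, Fer2LCH and IscU lie above the band on most arrays, Fer3HCH and Tsf2 lie at or below it on all, and mfrn, fh, Tsf1 and Mvl stand high on single arrays.

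Of the genes that store iron, the light chain had the largest mutant difference in dopaminergic neurons. Fer2LCH measured 11.14, 10.79 and 9.99 in dopaminergic controls and 5.32, 9.06 and 5.54 in dopaminergic mutants. All 3 mutant arrays were below all 3 controls, and replicates 1 and 3 were below the medians of their own arrays while replicate 2 was close to the controls. The means of the 3 arrays were 10.64 ± 0.59 (SD) for controls and 6.64 ± 2.10 for mutants, with a difference of −4.00 ± 1.17 (SE; 95% confidence interval −6.59 to −1.42; adjusted p = 0.828 with limma). The gene therefore did not pass, although the interval of its own difference, which is not adjusted for the number of probe sets, did not include 0. With array weights the adjusted p was 0.0134 at a difference of −5.10, in a fit that gave dopaminergic mutant replicate 1 a weight of 4.56 and replicates 2 and 3 weights of 0.28 and 0.41. Over the 22 alternatives the adjusted p ran from 0.0134 to 1.00.

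Since the groups did not overlap, leaving out an array could not turn the sign of the Fer2LCH difference. Without each array in turn the difference ranged from −5.21 (without dopaminergic mutant replicate 2) to −3.34 (without dopaminergic mutant replicate 1). Without dopaminergic mutant replicate 3, the array with low elav, it was −3.45 (adjusted p = 1.00 with limma). Sample titles carry a code whose first letter is C, D, E or F, and its meaning is not given. Between the arrays with letter D (control replicate 2 and mutant replicate 1) the difference was −5.47. Between those with letter E (control replicate 3 and mutant replicate 2) it was −0.93. The size thus differed between the letters, while the shared sign was fixed by the lack of overlap.

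In cholinergic neurons Fer2LCH measured 7.01, 9.61 and 9.23 in controls and 8.40, 11.18 and 10.21 in mutants. The groups overlapped, with a difference of 1.31 ± 1.17 (SE; 95% confidence interval −1.27 to 3.90). The mutant effect was lower in dopaminergic than in cholinergic neurons by −5.31 ± 1.66 (SE; 95% confidence interval −8.97 to −1.66; adjusted p = 0.773 for the interaction with limma), which did not pass. Dopaminergic controls were above cholinergic controls without overlap, by 2.02 ± 1.17 (adjusted p = 1.00). This comparison uses the same 3 dopaminergic control arrays as the mutant comparison, so the values are not independent. Among mutants, dopaminergic pools measured lower than cholinergic ones by −3.29 ± 1.17 (adjusted p = 0.450), with replicate 2 of the dopaminergic mutants above the lowest cholinergic mutant.

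The heavy chain did not follow the light chain on every array. Fer1HCH measured 12.41, 12.01 and 8.96 in dopaminergic controls, 11.93, 10.40 and 6.27 in dopaminergic mutants, 9.10, 12.12 and 11.94 in cholinergic controls and 12.40, 11.89 and 12.59 in cholinergic mutants. Dopaminergic mutant replicate 1 had the heavy chain at the level of the bright controls and the light chain near the bottom of its range, while replicate 3 was low for both. Each chain is read here against its own values on other arrays, since levels of different probe sets cannot be compared. For Fer1HCH the mutant difference was −1.59 ± 1.45 (SE; 95% confidence interval −4.77 to 1.59) in dopaminergic and 1.24 ± 1.45 (95% confidence interval −1.94 to 4.42) in cholinergic neurons. The first of these turned above 0 without dopaminergic mutant replicate 3 (0.040), with the title code letter as a replicate block (0.33) and with array weights (0.33).

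Across the 12 arrays the chains had a Pearson correlation of 0.539 (permutation p = 0.0633; adjusted p = 0.333 over the 21 pairs of tested genes) and a Spearman correlation of 0.420 (permutation p = 0.178; adjusted p = 0.624). The Pearson value was 0.420 without the 2 arrays farthest from the median of Fer1HCH and 0.243 without dopaminergic mutant replicate 3 alone. The probe sets of both chains belong to neighbouring genes on chromosome arm 3R whose extents overlap in the reference gene table, and whether the probes lie in the shared stretch is not given.

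**Figure D2:**
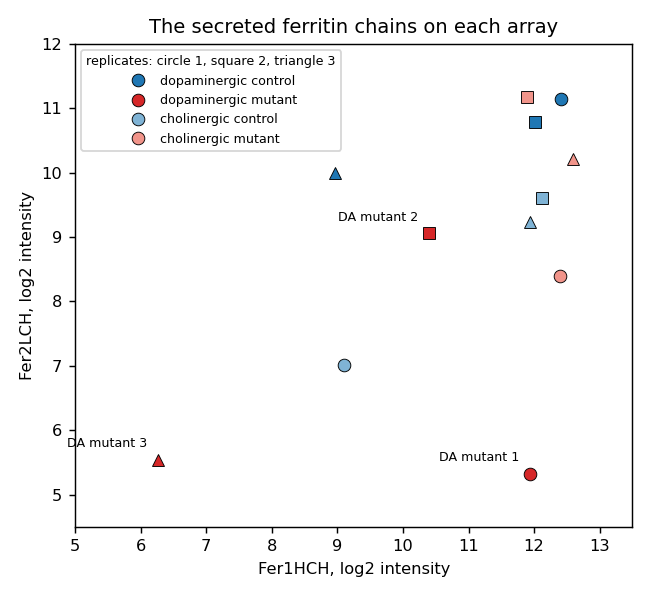
Each point is 1 array, with the log2 intensity of Fer1HCH on the horizontal axis and of Fer2LCH on the vertical axis, coloured by group and shaped by replicate. Dopaminergic mutant replicate 1 combines a high Fer1HCH (11.93) with a low Fer2LCH (5.32), and replicate 3 is low for both (6.27 and 5.54).

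Fer3HCH encodes a ferritin heavy chain that is targeted to mitochondria. It was at or near the lower part of every array, from 4.66 to 5.93, at or above the array median on 1 of 12 arrays, and was not tested. Its group means lay between 4.97 ± 0.27 (SD, n = 3) in cholinergic mutants and 5.51 ± 0.35 in dopaminergic mutants. The 3 cholinergic mutants (5.16, 5.10 and 4.66) were below the 3 cholinergic controls (5.35, 5.59 and 5.23) by a difference of means of −0.41, and all 6 values were below the medians of their arrays. In this comparison 11.9% of the probe sets tested were without overlap, and 1029 of those 1486 were lower in mutants. Nothing is read from the lack of overlap of Fer3HCH.

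Of the genes that bring iron to mitochondria and make iron-sulfur clusters, the scaffold gene IscU was bright everywhere. It measured 9.39 to 12.19 on the 12 arrays, above at least 92.4% of the probe sets of each array. Group means were 10.86 ± 1.22 (SD, n = 3) in dopaminergic controls, 10.95 ± 1.31 in dopaminergic mutants, 10.71 ± 1.20 in cholinergic controls and 11.26 ± 0.21 in cholinergic mutants. Neighbouring means in this order differed by less than the SD of any group but the cholinergic mutants, whose SD was 0.21. The mutant difference of IscU was 0.084 ± 0.91 (SE; 95% confidence interval −1.92 to 2.09) in dopaminergic and 0.55 ± 0.91 (95% confidence interval −1.45 to 2.56) in cholinergic neurons, so a change of up to about 2 on the log2 scale in either direction was within the interval in dopaminergic neurons. On dopaminergic mutant replicate 3 it was 9.57, higher than 99.0% of the probe sets of that array.

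Nfs1, the cysteine desulfurase that supplies the sulfur, had the smallest spread of the tested members, with a residual SD of 0.41, larger than that of only 7.22% of all probe sets tested. It measured 6.44, 6.42 and 6.49 in dopaminergic controls and 6.56, 7.62 and 7.38 in dopaminergic mutants, without overlap. The difference was 0.73 ± 0.43 (SE; 95% confidence interval −0.21 to 1.68; adjusted p = 0.935 with limma), and 0.57 with each array centred on its median. In cholinergic neurons the values were 6.31, 6.70 and 6.37 in controls and 6.49, 6.84 and 5.73 in mutants, overlapping, with a difference of −0.10 ± 0.43.

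Mitoferrin and frataxin were high on single cholinergic arrays. The mitoferrin gene mfrn measured 3.74 to 5.22 on the 6 dopaminergic arrays, 9.24, 6.52 and 4.40 in cholinergic controls and 10.48, 5.22 and 6.71 in cholinergic mutants. Each cholinergic group thus held 1 array far above all dopaminergic arrays and 1 array within or at the edge of their range. The frataxin gene fh, which passed the median on only 2 arrays and was not tested, was above 7 on the same 2 arrays, cholinergic control replicate 1 (7.51) and cholinergic mutant replicate 1 (7.24), and measured 4.22 to 5.66 on the other 10. The 4 arrays on which mfrn reached the array median were all cholinergic, so it entered the test only through the neuron type in which it was high, and its difference between neuron types is given as a description. Dopaminergic minus cholinergic was −2.03 in controls and −3.02 in mutants. The difference in mutants ranged from −4.15 without cholinergic mutant replicate 2 to −1.52 without cholinergic mutant replicate 1. The mutant difference of mfrn was −0.25 ± 1.33 in dopaminergic and 0.75 ± 1.33 in cholinergic neurons.

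The transferrins and Malvolio handle iron and other metals outside or at the edge of the cell. Tsf1, the main iron carrier of the hemolymph, measured 7.17, 6.84 and 7.33 in dopaminergic controls, 7.32, 7.23 and 8.26 in dopaminergic mutants, 9.69, 7.15 and 6.89 in cholinergic controls and 7.04, 7.04 and 6.13 in cholinergic mutants. Cholinergic control replicate 1 and dopaminergic mutant replicate 3 were the 2 highest arrays. Dopaminergic mutants were above cholinergic mutants without overlap, by 0.87 ± 0.74 (SE; adjusted p = 0.578), and by 0.54 without dopaminergic mutant replicate 3. The probe sets of Tsf1 disagreed. In the second, dopaminergic mutants (6.16 to 8.66) overlapped cholinergic mutants (6.04 to 6.49). In the third they also overlapped, at 4.00 to 4.35 and 3.76 to 4.01. On cholinergic control replicate 1 the second probe set measured 6.58, within its range of 6.04 to 7.14 on all arrays but dopaminergic mutant replicate 3, where it reached 8.66. The third stayed between 3.17 and 4.43 on all 12 arrays.

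Tsf1 is also made by fat body, and glia were among the cells that the sort could hold. On cholinergic control replicate 1, the glial genes moody, alrm, wrapper and loco measured 9.59, 8.42, 8.06 and 8.36 and repo, which defines most glia, measured 2.74. Of the remaining glial genes measured, nrv2 was at 6.96, while Gs2 (5.14) and gcm (3.95) were below the array median of 5.73. Of 9 glial markers 8 had a named probe set, and their mean was 6.65 on that array. It was 6.75 on cholinergic control replicate 3, where mfrn, fh and Tsf1 were not high, and 5.55 on cholinergic mutant replicate 1, where mfrn was highest and fh was also high. The mean ranged from 4.14 to 5.58 in dopaminergic controls, 4.51 to 5.79 in dopaminergic mutants, 4.77 to 6.75 in cholinergic controls and 5.55 to 6.46 in cholinergic mutants. The mean of the 6 measured fat body markers ranged from 5.03 to 5.74, 5.62 to 6.54, 5.44 to 5.74 and 5.00 to 5.15 in the same order of groups, with its highest value on dopaminergic mutant replicate 3. The mean of the 6 hemocyte markers ranged from 3.71 to 5.84 over all arrays. The part of these cells in the values of Tsf1, mfrn and fh was not tested.

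Tsf2, a membrane-bound transferrin of septate junctions, was low on all arrays, from 2.90 to 4.39, never reached an array median and was not tested. The cholinergic mutants (3.32, 3.14 and 2.90) were below the cholinergic controls (lowest 3.54) and below the dopaminergic mutants (3.94, 3.39 and 4.39), with differences of means of −0.53 and, for dopaminergic minus cholinergic mutants, 0.79. Of the probe sets tested, 11.9% and 13.8% were without overlap in these comparisons. Most of them had the same direction, 1029 of 1486 and 1149 of 1719, so nothing is read from the lack of overlap of Tsf2. Mvl, the divalent metal transporter Malvolio, measured 5.67 to 6.48 in dopaminergic controls and 5.75 to 6.10 in cholinergic controls. In mutants of both types it was spread wider, with 5.78, 8.74 and 6.23 in dopaminergic and 8.26, 5.42 and 7.47 in cholinergic neurons. The 3 highest values of Mvl were thus on mutant arrays, but each mutant group overlapped its controls. The mutant difference was 0.90 ± 0.83 (SE; 95% confidence interval −0.92 to 2.72) in dopaminergic and 1.17 ± 0.83 in cholinergic neurons (adjusted p = 0.935 and 0.939 with limma). On dopaminergic mutant replicate 2, where Mvl was highest, the mean of the glial markers was 5.39 and that of the fat body markers 5.86, both within the range of the other arrays. Single markers went both ways there. The glial genes repo (7.39) and loco (8.59) and the fat body gene apolpp (9.46) were each at their highest of the 12 arrays. Gs2 was at 7.32, while alrm was at 3.84 and Yp1 at 5.36. Of the 8 glial markers 3 reached the array median, as did 2 of the 6 fat body markers. Their part in the value was not tested.

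**Figure D3:**
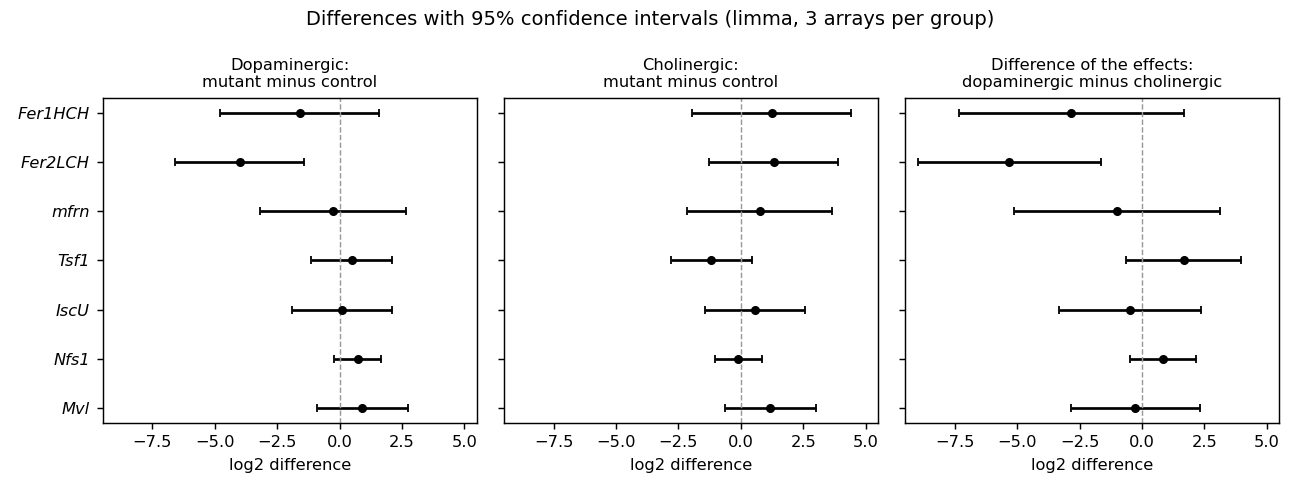
Log2 differences (horizontal axis) of the 7 tested genes are shown with 95% confidence intervals from limma, for mutant minus control in dopaminergic neurons, in cholinergic neurons, and for the difference of those effects. The intervals of Fer2LCH in the first panel (−6.59 to −1.42) and the third (−8.97 to −1.66) do not include 0 and all the others do, before any adjustment for the 12460 probe sets tested.

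By comparison, the parkin mutation in dopaminergic neurons gave 0 of 7 calls with limma, against 0% of all probe sets, and 1 of 7 at an unadjusted p of 0.05 (Fer2LCH), against 4.49%. Arrays of the groups did not overlap for 2 of the 7 genes, Fer2LCH lower and Nfs1 higher in mutants, against 9% of all probe sets. In all, 4 of the 7 differences were above 0 and 3 below, with a median of 0.084, against 59.7% above 0 and a median of 0.18 over all probe sets. In cholinergic neurons there were 0 of 7 calls with limma, against 0.0482% of all probe sets, and 0 of 7 at an unadjusted p of 0.05, against 4.57%. None of the 7 tested genes had groups without overlap there, against 11.9%. The untested Fer3HCH and Tsf2 did, both lower in mutants. The median of the 7 differences was 0.75, against −0.17 over all probe sets. For the difference between the mutant effects there were 0 of 7 calls (0% of all probe sets), and 1 of 7 at an unadjusted p of 0.05 (5.18% of all).

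Between neuron types, 0 of 7 genes passed in controls with limma (0% of all probe sets; 0 of 7 and 3.63% at an unadjusted p of 0.05), and Fer2LCH alone of the 7 was without overlap, against 8.49%. In mutants 0 of 7 passed (0.0161% of all probe sets), Fer2LCH and mfrn were below an unadjusted p of 0.05, as were 10.5% of all probe sets, and mfrn and Tsf1 were without overlap, as were 13.8%. The untested Tsf2 was also without overlap between mutants. Since the filter admitted mfrn only through cholinergic arrays, nothing is read from the place of mfrn in these counts. The confidence intervals of the tested genes were wide. Even for Nfs1, with the smallest SE, the interval of the mutant difference in cholinergic neurons ran from −1.05 to 0.84.

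Around these 10 genes, 46 others of iron handling were followed in 5 lists: iron transport and regulation, mitochondrial iron-sulfur assembly, cytosolic iron-sulfur assembly, heme synthesis, and proteins that carry iron-sulfur clusters. Of these, 40 had a named probe set and 32 were tested. None passed in any of the comparisons with limma. In dopaminergic mutants 14 of 32 differences were above 0 and 18 below (median −0.18), against 59.7% above 0 over all probe sets, and 2 of 32 were below an unadjusted p of 0.05, against 4.49%. In cholinergic mutants 15 were above 0 and 17 below (median −0.038), against 41.9% above 0 over all probe sets, and 2 of 32 were below an unadjusted p of 0.05, against 4.57%. Both counts of 2 were near the share over all probe sets. Groups did not overlap for 3 of 32 in dopaminergic mutants (Fdx1, CG13623 and Nubp1, all lower), against 9% of all probe sets. That share counts both directions, with 760 of 12460 probe sets higher and 361 lower in mutants. In cholinergic mutants this held for 2 of 32 (CIAPIN1 lower and Ppox higher), against 11.9%. Neither count was above the share for both directions by much. That share is larger than the one for lower values alone in dopaminergic mutants, where all 3 genes were lower. The direction was not tested, and nothing is read from these counts. With array weights, 1 of the 32, Fdx1, passed in dopaminergic mutants, in a fit that called 524 of all probe sets.

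**Figure D4:**
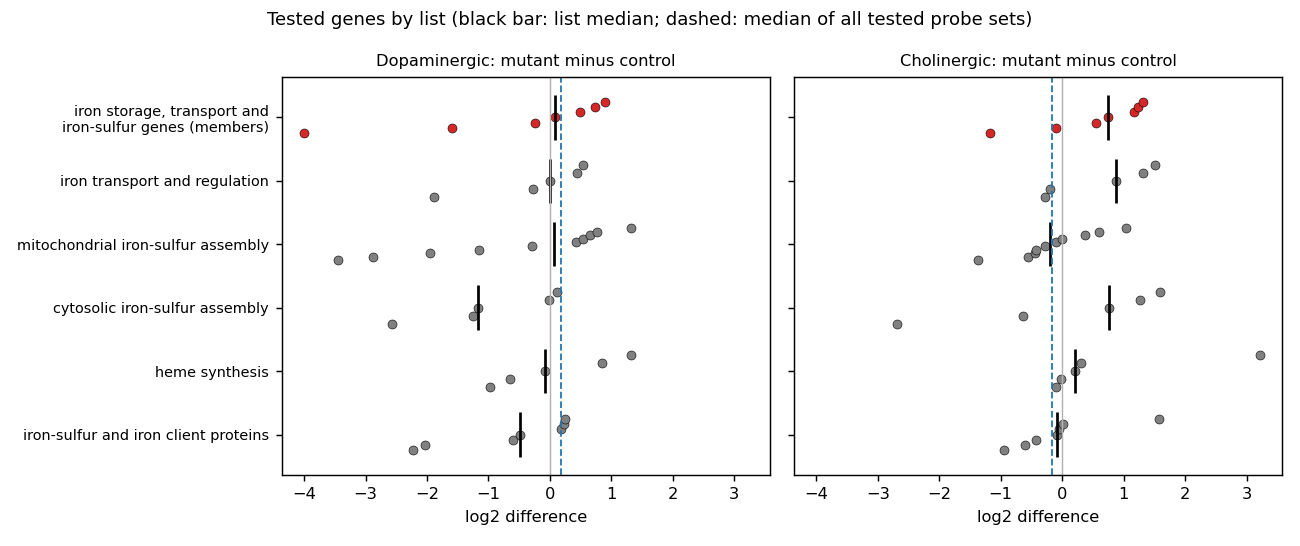
Each point is the log2 difference (horizontal axis) between mutants and controls of 1 tested gene, grouped by list, in dopaminergic (left) and cholinergic (right) neurons. The point farthest left in the first panel is Fer2LCH (−4.00), followed by Fdx1 (−3.45). Black bars are list medians, lowest for cytosolic assembly in dopaminergic neurons (−1.17), and the dashed line is the median of all tested probe sets (0.18 and −0.17).

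Mitochondrial iron-sulfur assembly held the gene with the smallest p of the pathway. Fdx1, a ferredoxin that carries electrons, measured 10.91, 10.56 and 9.68 in dopaminergic controls and 7.54, 6.52 and 6.74 in dopaminergic mutants. The groups did not overlap, as in 9% of all probe sets tested in both directions together, and with mutants lower in 361 of 12460. Unlike Fer2LCH, all 3 mutant arrays lay close together. The difference was −3.45 ± 0.81 (SE; 95% confidence interval −5.23 to −1.67; adjusted p = 0.779 with limma), and it was −3.35 without dopaminergic mutant replicate 3. Between arrays with letter D it was −3.02 and between those with letter E −3.16. The lack of overlap fixed the sign of these values, and Fdx1 was named for its small p in these same data. They are therefore no separate evidence for the difference. In cholinergic neurons Fdx1 measured 9.63, 9.98 and 7.60 in controls and 7.64, 6.99 and 8.48 in mutants, which overlapped (−1.36 ± 0.81), and the interaction was −2.08 ± 1.14 (adjusted p = 0.773). CG13623, the homologue of ISCA2, a late factor of cluster assembly, was lower in dopaminergic mutants by −2.89 ± 1.10, again without overlap and without passing (adjusted p = 0.935). Its controls measured 9.08, 10.13 and 6.17 and its mutants 5.65, 4.99 and 6.08. The co-chaperone gene Hsc20 differed by 1.32 ± 0.82, with 9.60 on dopaminergic mutant replicate 2 and 5.53 and 6.62 on the others. Over the 10 tested genes of this list the median was 0.065 in dopaminergic and −0.19 in cholinergic mutants.

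**Figure D5:**
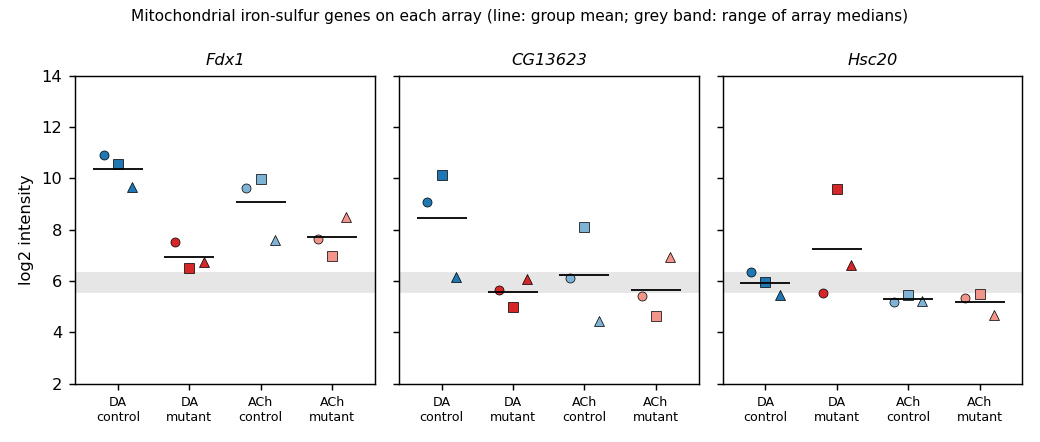
The log2 intensity (vertical axis) of Fdx1, CG13623 and Hsc20 is plotted for each array by group, with group means as lines and the range of array medians as a grey band. For Fdx1 the dopaminergic controls (9.68 to 10.91) lie above the dopaminergic mutants (6.52 to 7.54), and for Hsc20 dopaminergic mutant replicate 2 (9.60) lies above all other arrays.

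In the cytosolic list the scaffold gene Nubp1 measured 11.84, 11.44 and 9.60 in dopaminergic controls and 7.90, 9.49 and 7.77 in dopaminergic mutants, a difference of −2.57 ± 1.24 (SE; adjusted p = 0.935). CIAPIN1, which passes electrons to the cytosolic machinery, differed by 0.12 ± 1.11 in dopaminergic mutants and by −2.68 ± 1.11 in cholinergic mutants, without overlap in the latter. Ciao1, of the complex that delivers clusters, differed by −1.26 ± 0.95 and −0.63 ± 0.95. The median of the 5 tested genes was −1.17 in dopaminergic and 0.77 in cholinergic mutants.

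In heme synthesis the genes with the smallest p were Alas, for the first enzyme, Ppox, for protoporphyrinogen oxidase, and Coprox. Ppox measured 5.65, 6.24 and 5.53 in cholinergic controls and 7.65, 11.60 and 7.86 in mutants, a difference of 3.22 ± 1.40 (SE; adjusted p = 0.939). Alas differed between dopaminergic and cholinergic mutants by −2.96. Among the mutant arrays it reached the array median on cholinergic ones alone, though it also did so on dopaminergic control replicate 3 (6.72). Coprox differed by 0.85 ± 0.63 between dopaminergic mutants and controls. The list median was −0.081 in dopaminergic and 0.22 in cholinergic mutants.

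Among proteins that depend on clusters, the lipoic acid synthase gene Las differed by −2.03 ± 1.13 in dopaminergic mutants, with 1 control array (11.52) above all others. Mitochondrial aconitase (mAcon1) differed by −2.22 ± 1.30, and ND-75, a subunit of complex I, by −0.61 ± 0.94 (SE for each; adjusted p from 0.935 to 0.937). The list median was −0.48 in dopaminergic and −0.084 in cholinergic mutants. In iron transport and regulation, the sideroflexin genes Sfxn1-3 and Sfxn2 and the metal-responsive transcription factor gene MTF-1 had the smallest p. Their unadjusted p in the limma F test over the groups ran from 0.390 to 0.690. The list median was 0.0013 in dopaminergic and 0.87 in cholinergic mutants.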

How the data were processed

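RNA of 12 pools of sorted neurons was made into biotin-labelled cDNA (Ovation One Direct and Encore modules) and put on 1 array per pool, per the labels' protocols. The deposited values are 1 log2 intensity for each probe set. How the authors normalized and summarised them is not given in the sources used here. The log2 scale was read from the values. The array medians differed, and no scaling was added.

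Of 18952 probe sets, 183 controls were left out. Of the remaining 18769, the platform annotation gave 13647 a single symbol, 402 several and 4720 none, and 13550 of the single symbols were found in the reference gene table of the Release 6 assembly, used only for names, chromosome arms and neighbours. A probe set entered the test if it reached its array's median on 3 or more arrays, which 12460 did. The test was limma's (version 3.58.1, R 4.3.3), 2-sided, with lmFit, eBayes with a trend and 1 coefficient per group over all arrays. Benjamini-Hochberg adjustment ran over all probe sets, with a threshold of 0.05. Prior and residual degrees of freedom were 3.07 and 8. The procedure was tested on simulated data. Permutation p-values of correlations used 100000 permutations and were 2-sided. Python 3.11.15, scipy 1.17.1, pandas 2.3.3 and matplotlib 3.10.9 were used besides.

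The genes and lists were chosen with earlier results of these data known. By rule, all 10 genes were named, and up to 3 genes per pathway list with the smallest p in the F test. Alternatives were array weights, eBayes with robust hyperparameters or no trend, the 65th percentile as the filter or none, arrays centred or quantile normalized, the title code letter as a block, averaging the probe sets of each gene, only the 6 arrays compared, an adjusted p of 0.1, and leaving out each array. Replicate numbers follow the order of the samples and pair nothing. The labels do not say whether pools of a group came from separate flies, so p-values measure the spread between these arrays, whose number limits the precision.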

Additional observations from a re-analysis of the deposited data

How the results depend on the processing

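No member gene was called in 133 of the alternative counts, and the other 3 came from array weights. There 1 member, Fer2LCH, was called in dopaminergic mutants (−5.10), between the mutants of both neuron types, and among the 4 groups. The weight estimation stopped before it converged. Without each array in turn, 0 members were called in every comparison. Differences of members were followed through the alternatives where their groups did not overlap, so leaving out an array could not turn their sign. Several other settings left a difference unchanged and altered only its p-value. Over the 22 alternatives Fer2LCH ranged from −5.21 to −3.34 and Nfs1 from 0.23 to 1.05 in dopaminergic mutants. Between controls Fer2LCH ranged from 1.22 to 2.52. Between mutants Tsf1 ranged from 0.42 to 1.41, and mfrn, given as a description only, from −4.15 to −1.52.

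The count of all probe sets called moved more. In dopaminergic mutants it was 0 with all arrays as reported, 1 without a filter and 524 with array weights, and 0 to 74 without each array. In cholinergic mutants it was 6, against 0 with the higher filter or the replicate block, 2 without a trend and 3 with only the 6 arrays, and 0 to 14 without each array. For the difference of the effects it was 0, and 0 to 3 without each array. Between controls it was 0, against 1 without a filter or with only the 6 arrays and 6 with array weights, and 0 to 5 without each array. Between mutants it was 2, against 0 with quantile normalization, the higher filter, robust hyperparameters, the replicate block or only the 6 arrays, 1 without a trend, 6 with centring or an adjusted p of 0.1, and 620 with array weights, and 0 to 112 without each array. Among the 4 groups it was 3, against 6 with quantile normalization or centring, 0 with the higher filter or the replicate block, 5 at an adjusted p of 0.1 and 448 with array weights, and 0 to 65 without each array. The highest of these counts, 74, 112 and 65, came without dopaminergic mutant replicate 2. The cause was not tested.

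The title code letter as a replicate block gave −3.59 for Fer2LCH in dopaminergic mutants and called no member. Deviations from group means correlated with a median of 0.019 over 15 pairs of arrays that share a letter and −0.00095 over 39 that do not, so the letters were not taken to pair the arrays. Signal below the array median on most arrays limits what can be said of Fer3HCH, fh and Tsf2. Tsf2 was the lowest, above only 2.2% to 9.0% of the probe sets of each array.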

Other observations

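Genes whose pattern over the 12 arrays was most like that of the secreted ferritin chains were sought by the mean absolute difference from the average of the mean-centred Fer1HCH and Fer2LCH profiles, over 7599 other tested genes. The closest was CG32432, which differed by 0.550 on average and measured 11.75, 12.30 and 11.54 in dopaminergic controls and 9.15, 10.52 and 6.42 in dopaminergic mutants. It was followed by CG40498 (0.645), the mitochondrial ribosomal protein gene mRpS5 (0.657), Wdr62 (0.702) and nAChRbeta1, a subunit of the nicotinic acetylcholine receptor (0.715). All 5 were lowest on dopaminergic mutant replicate 3, as is Fer1HCH. Without that array their ranks were 3, 2, 10, 16 and 18.

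Of the 21 pairs of tested iron genes, none had an adjusted permutation p under 0.05 for either correlation over the 12 arrays. The pair with the smallest Spearman p was Fer1HCH and Tsf1, at −0.762 (permutation p = 0.00562; adjusted p = 0.118), with a Pearson correlation of −0.674 (permutation p = 0.0285; adjusted p = 0.325). The Pearson value was −0.866 without the 2 arrays farthest from the median of Fer1HCH and −0.694 without dopaminergic mutant replicate 3.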
